A study of Mus musculus with 2 samples.

Results

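Nuclei of the dopamine neuron lineage that held a transcript of Tmem163 but none of Sox6 or Aldh1a1 were described in single-nucleus RNA-seq of the adult mouse ventral midbrain. A nucleus with at least 500 detected genes was a member when its raw counts showed at least 1 unique molecular identifier (UMI, a captured transcript) of Tmem163 and none of Sox6, Aldh1a1, Anxa1, Otx2, Slc17a6 and Gad2. Of 12065 nuclei kept, 517 met this rule. They were 263 of 6556 nuclei in the male library (4.01%, exact Clopper-Pearson 95% interval 3.55 to 4.52%) and 254 of 5509 in the female library (4.61%, 4.07 to 5.20%). All mice were adults of the strain Dat-IRES-Cre, CAG-Sun1/sfGFP, in which cells that make Cre under the control of the dopamine transporter gene gain a green fluorescent protein at their nuclear envelope. Every cell that has ever expressed this Cre can be labelled, so the sorted nuclei are defined by lineage. GFP+ singlet nuclei of 2 males were pooled into a library and those of 3 females into another. The libraries were treated as replicates of a single condition, and because each sex has 1 pool, sex and library cannot be told apart.

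Midbrain dopamine neurons make dopamine from tyrosine through tyrosine hydroxylase and aromatic amino acid decarboxylase, load it into vesicles and take it up again through the dopamine transporter. They are not uniform. The transcription factor Sox6 and the retinaldehyde dehydrogenase Aldh1a1 mark ventral substantia nigra neurons, whereas the calcium buffer calbindin (Calb1) marks neurons of the dorsal tier and of the ventral tegmental area. Tmem163 encodes a zinc-binding membrane protein found on synaptic vesicles and lysosomes. Of the other genes in the rule, Anxa1 encodes a lipid-binding annexin, Otx2 a homeobox factor of ventral tegmental neurons, Slc17a6 the vesicular glutamate transporter and Gad2 an enzyme of GABA synthesis.

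Tmem163 (ENSMUSG00000026347) spans chr1:127486546-127679548 (minus strand) in mm10, the build of the files, and Calb1 (ENSMUSG00000028222) spans chr4:15881264-15908064 (plus strand). Tmem163 was detected in 625 male nuclei (9.53%) and 593 female nuclei (10.8%). Members were 42.1% of these in the male library and 42.8% in the female one. Sox6 removed the most candidates, with a UMI in 44.8% and 43.7% of the Tmem163 nuclei, followed by Aldh1a1 in 21.0% and 26.1%. The remaining genes of the rule were each detected in at most 6.75% of the Tmem163 nuclei of a library.

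Most members were just inside the rule. A single Tmem163 UMI was found in 82.9% of male and 80.7% of female members, and 3 or more UMIs in 1.52% and 4.72%. On the other side of the threshold, 134 male and 113 female Tmem163 nuclei missed the rule by 1 UMI of 1 excluded gene. When each nucleus was thinned to 1000 UMIs, 2.39% of male and 2.71% of female nuclei met the rule. Of these, 73.5% and 69.0% were also members at full depth. A count of 0 at this depth is a missed transcript in an unknown part of the nuclei, so the rule picks out a range of nuclei and its edges move with depth.

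Members held a median of 2576 UMIs in the male library and 2908 in the female one, against 2155 and 2265 in nuclei that met the rule except for having no Tmem163. This gap was removed by pairing each member with a nucleus of the same library within 0.05 log10 units of its total. No doublets were removed. The libraries shared 6 barcodes, none of them in a member.

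The label of these nuclei names Calb1 as a second marker. Its level was not higher in members than in depth-matched nuclei that also lacked Sox6 but had no Tmem163. Nuclei with Sox6 are compared further below. A Calb1 UMI was found in 44 of 263 male members (16.7%, 12.4 to 21.8%) and in 60 of 254 female members (23.6%, 18.5 to 29.3%). Among depth-matched nuclei that differed from them only by having no Tmem163, the share was 22.1% in the male library and 27.4% in the female library. The Calb1 level was 66.9 CPM (UMIs of a gene scaled to the summed UMIs of the nuclei) in male members against 101 in their matched comparators, and 83.6 against 121 in the female library. It was lower in the members of both libraries, with a log2 fold change of -0.56 (SE 0.17), which missed the threshold (edgeR adjusted p = 0.063). The nuclei are therefore called by their rule, Tmem163+ Sox6- nuclei, in the text that follows. Nuclei with Calb1 and without Sox6 or Aldh1a1 numbered 526 in the male library and 429 in the female one, and Tmem163 was detected in 51 and 66 of them.

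To see where the members sat, all kept nuclei were clustered without Calb1 and without the 7 genes of the rule, which gave 17 clusters, numbered K1 to K17 by size. Members were found in 16 clusters of the male and 15 of the female library, and no cluster consisted mainly of them. The highest share among the larger clusters was in K10, with 49 of 283 male nuclei (17.3%, 13.1 to 22.2%) and 67 of 283 female nuclei (23.7%, 18.8 to 29.1%). K4 contributed 47 members in each library, which were 7.57% and 8.05% of its nuclei. Together K10 and K4 held 36.5% of male and 44.9% of female members. The rest were mostly in K6, K8, K9 and K11, with 12 to 30 members per cluster and library.

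**Figure D1:**
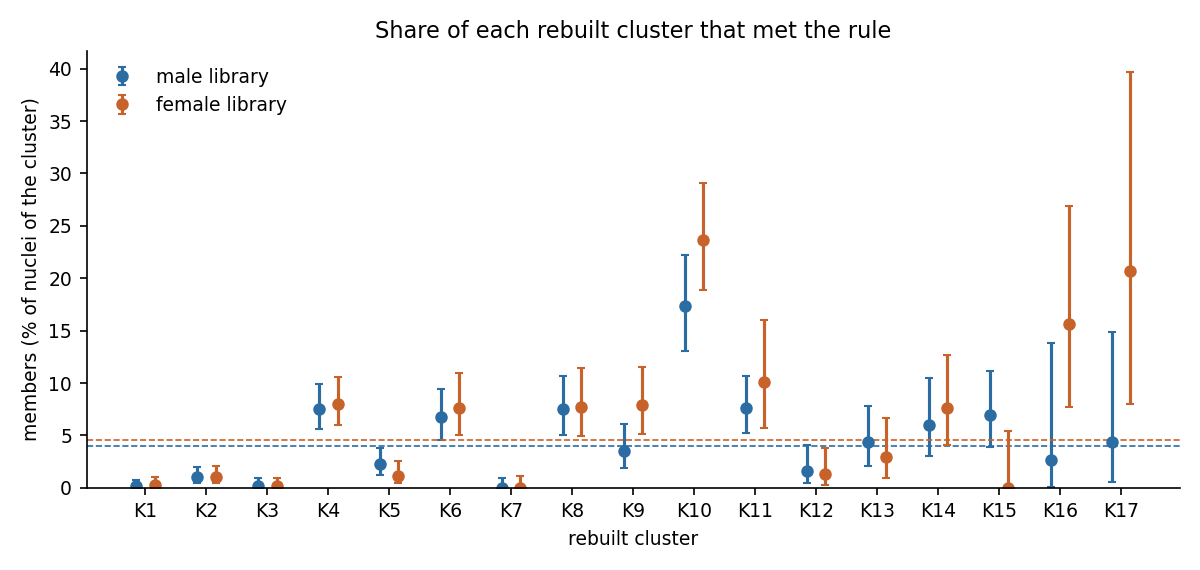
Share of the nuclei of each rebuilt cluster that met the rule (vertical axis, percent) for clusters K1 to K17 (horizontal axis), in the male (blue) and the female (orange) library. Points are shares, bars exact 95% intervals that cover counting error only, and dashed lines the share over each whole library; K10 stands at 17.3% and 23.7%, with narrower intervals than the small clusters K16 and K17, and K1, K3 and K7 lie at or near 0.

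Clusters that hold members differ in the excluded genes. K10, whose leading genes included Postn and Adam12, had Sox6 at 76.1 and 58.3 CPM in the male and female libraries, and 85.9% and 87.6% of its nuclei had no Sox6 UMI. K4, led by Bcl11b and Arhgap28, had Sox6 at 352 and 393 CPM, and only 42.5% and 40.1% of its nuclei lacked a Sox6 UMI. Members in K4 thus came from a cluster in which most nuclei held Sox6, and those in K10 from one in which few did. Tmem163 was at 122 and 147 CPM in K10 and at 74.2 and 78.8 CPM in K4. At the other end, K1 had Tmem163 at 1.79 and 5.92 CPM and supplied 1 male and 2 female members. K15, whose leading genes included the oligodendrocyte genes St18 and Mbp, held 15 male members and no female member. In K16 and K17 the female library had 10 and 6 members against 1 and 2 in the male library.

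Spock1, Enox1, Kcnk13, Kcnk9 and Ldb2 had the patterns most like that of Tmem163 over 33 sums of a cluster in a library (those with at least 30 nuclei), with Spearman correlations from 0.794 to 0.867 among 6595 genes. The points share 2 libraries and the depth of their clusters, so these values are a description. Spock1 encodes an extracellular proteoglycan, Kcnk13 and Kcnk9 encode potassium channels that are open at rest, and Ldb2 encodes a cofactor of LIM-domain transcription factors.

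The main comparison asked what else differed in nuclei with Tmem163. Members were set against depth-matched nuclei of the same library that also lacked the 6 excluded genes but had no Tmem163 UMI, in 263 male and 252 female pairs. UMIs were summed per library and class of nuclei, so that 4 sums, paired by library, entered the quasi-likelihood test of edgeR. At an adjusted p under 0.05, 74 genes were higher and 68 lower in the members, 1.67% of the 8521 genes tested. Of these 142 genes, 140 had the sign of the fit in each library alone.

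Asic2, an acid-sensing cation channel subunit, had the smallest p-value. It was at 1108 CPM in male members against 555 CPM in comparators, and at 1025 against 469 CPM in the female library. Members were at about the same level in both libraries and above both comparator sums (log2 fold change 1.05, SE 0.07; edgeR adjusted p = 1.5e-41). Rbfox1, a regulator of splicing in neurons, was at 864 against 544 CPM in the male and at 1001 against 412 CPM in the female library (log2 fold change 0.96, SE 0.08; edgeR adjusted p = 5.6e-30). Asic2 and Rbfox1 were singled out in this comparison after their values were seen. Kcnip4, which encodes a partner of A-type potassium channels, was at 9673 against 6746 CPM and at 11386 against 7625 CPM (log2 fold change 0.54, SE 0.05; edgeR adjusted p = 1.3e-28). Il1rapl2, a synaptic adhesion protein of the interleukin-1 receptor family, was at 2040 against 1343 CPM and at 2217 against 1359 CPM (log2 fold change 0.65, SE 0.06; edgeR adjusted p = 3.3e-25). All 4 genes were higher in members of both libraries, Rbfox1 by a wider margin in the female library.

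**Figure D2:**
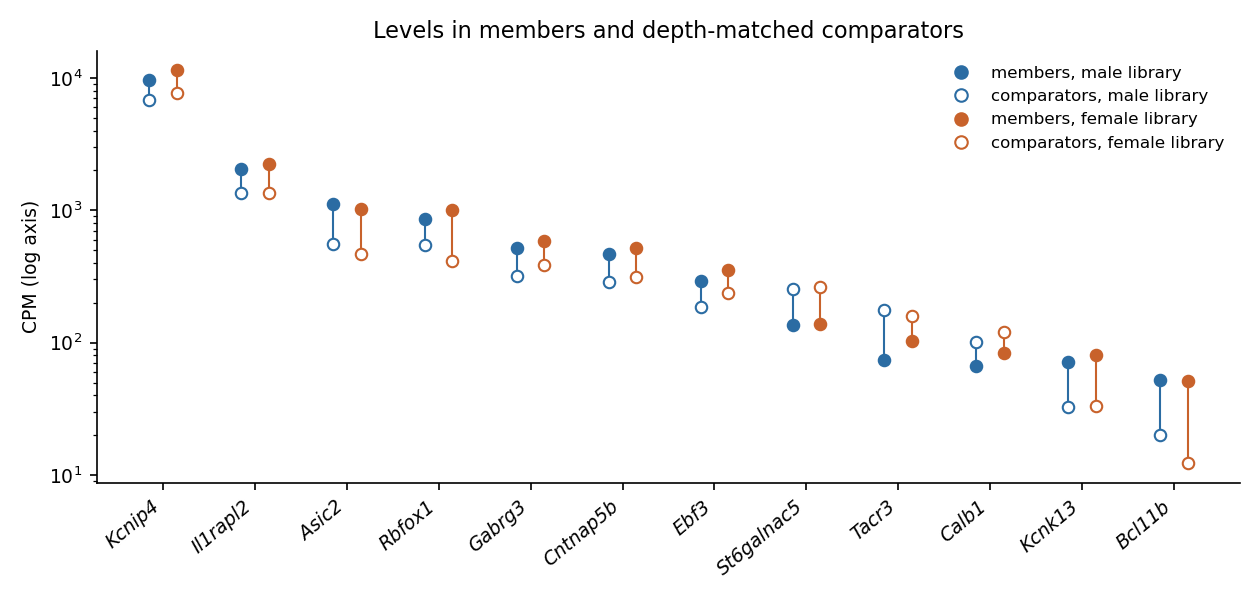
Levels of 12 genes (horizontal axis) in CPM (vertical axis, log scale) in members (filled) and in depth-matched comparators without Tmem163 (open), in the male (blue) and the female (orange) library; each point is 1 sum over nuclei. Kcnip4, Il1rapl2, Asic2, Rbfox1, Gabrg3, Cntnap5b, Ebf3, Kcnk13 and Bcl11b lay higher in members of both libraries, and St6galnac5, Tacr3 and Calb1 lower; Calb1 did not pass the test.

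By fold change, the highest named genes were Arhgap28, Sox5, Postn, H2-T22, Bcl11b, Npsr1, Synpr, Kcnk13, Gpr108 and Ebf2. Genes named by fold change had to have the same sign in both libraries, here and below. Arhgap28 encodes a GTPase-activating protein and was at 17.7 against 7.57 CPM in the male and 38.1 against 4.93 CPM in the female library. Sox5, a transcription factor of the same SoxD group as Sox6, was at 40.4 against 3.79 CPM and at 29.5 against 12.3 CPM (log2 fold change 2.08, SE 0.41; edgeR adjusted p = 8.2e-05). It was among the leading genes of K11. In the male library, members of K10 and K4 held no Sox5 UMI and those of K6 held 7. Bcl11b, a zinc-finger transcription factor, was at 51.8 against 20.2 CPM and at 51.7 against 12.3 CPM (log2 fold change 1.66, SE 0.30; edgeR adjusted p = 1.0e-05). Bcl11b was thus at the same level in members of both libraries, whereas the difference in Sox5 was wider in the male and that in Arhgap28 in the female library. Postn, which encodes a secreted matrix protein, was at 12.6 against 3.79 CPM and at 45.5 against 12.3 CPM. The potassium channel Kcnk13 was at 72.0 against 32.8 CPM and at 81.2 against 33.3 CPM (log2 fold change 1.20, SE 0.24; edgeR adjusted p = 0.00012). Npsr1, the neuropeptide S receptor, rose by 0.33 log2 units in the male and by 1.95 in the female library. Synpr, a synaptic vesicle protein, was at 50.5 against 18.9 CPM and at 43.0 against 19.7 CPM. H2-T22 belongs to a family of closely similar class I genes, and its reads may be split among them.

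The lowest named genes were Stxbp2, Gnb4, Col23a1, Kcnh5, Borcs7, Otx2os1, Tmem132d, Plpp1, St6galnac5 and Plcg2. St6galnac5, a sialyltransferase of gangliosides, was at 135 against 256 CPM in the male and at 138 against 263 CPM in the female library (log2 fold change -0.93, SE 0.12; edgeR adjusted p = 7.2e-11). This fall was of nearly the same size in both libraries. Stxbp2, a syntaxin-binding protein of vesicle fusion, was at 10.1 against 27.8 CPM and at 4.92 against 35.8 CPM. Kcnh5, a voltage-gated potassium channel, was at 32.8 against 68.1 CPM and at 33.2 against 78.9 CPM. Tmem132d, a transmembrane protein, was at 48.0 against 101 CPM and at 38.1 against 81.4 CPM. The levels of these 3 genes in members were below those of comparators in both libraries, which the choice of named genes required. Otx2os1, which overlaps Otx2 on the opposite strand, was at 46.7 against 83.3 CPM and at 29.5 against 83.9 CPM; reads of Otx2 were absent from both classes by the rule.

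**Figure D3:**
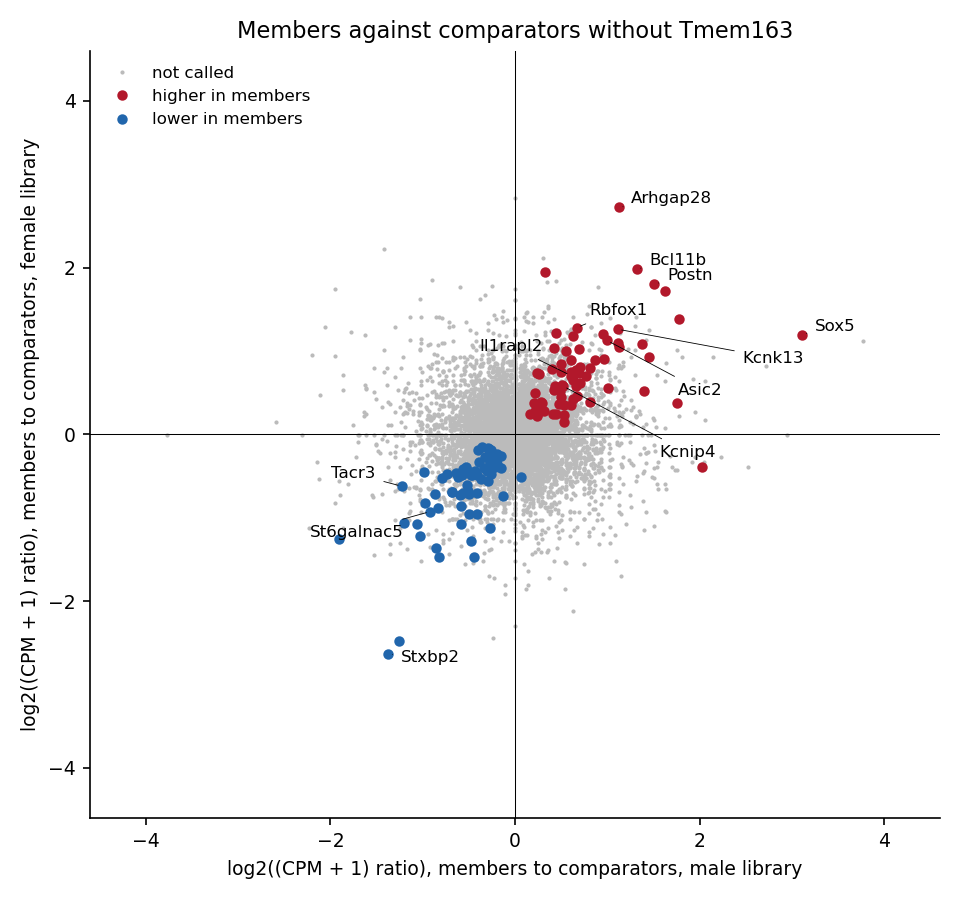
Ratio of members to comparators without Tmem163 on the log2(CPM + 1) scale in the male (horizontal axis) and the female (vertical axis) library for the 8521 genes tested; red and blue points are the 74 genes called higher and the 68 called lower, grey points the rest. Called genes lay mostly in the upper right and lower left, among them Bcl11b and Sox5 at the upper right and Stxbp2 at the lower left.

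No difference in dopaminergic genes was detected, on a list too short to set apart from the 1.67% called over all genes tested. None of 7 tested genes of dopamine synthesis, storage and reuptake passed edgeR's or DESeq2's test in either direction (2 had an unadjusted p under 0.05 in edgeR), and their median log2 fold change was -0.01, as it was over all genes tested. Th, which encodes tyrosine hydroxylase, was at 307 against 323 CPM in the male and at 397 against 493 CPM in the female library (log2 fold change -0.22, SE 0.09; edgeR adjusted p = 0.37). Slc6a3, the dopamine transporter gene, was at 488 against 448 CPM and at 583 against 602 CPM (log2 fold change 0.02, SE 0.08). Ddc, which encodes aromatic amino acid decarboxylase, was at 962 against 909 CPM and at 904 against 862 CPM. The vesicular monoamine transporter gene Slc18a2 was at 438 against 430 CPM and at 1086 against 1102 CPM. Its level was higher in the female library in both classes of nuclei.

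On the list of identity transcription factors of dopamine neurons, 12 genes were tested, of which only Ebf3 rose and none fell. The share called over all genes tested was 1.67%. Ebf3, of the early B-cell factor family, was at 293 against 186 CPM in the male and at 356 against 237 CPM in the female library (log2 fold change 0.61, SE 0.11; edgeR adjusted p = 5.9e-06). The median of the list was -0.18 on the log2 scale. Nr4a2, a nuclear receptor needed for the dopaminergic fate, was at 169 against 249 CPM in the male and at 172 against 170 CPM in the female library, and did not pass the test.

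Among 21 tested markers of dopamine neuron subtypes, Postn and Ebf2 rose and Tacr3 and Ntf3 fell, against 1.67% called over all genes tested. This list was compiled with earlier results of these data known. Ebf2 was at 53.0 against 24.0 CPM and at 61.5 against 28.4 CPM. Tacr3, the receptor of neurokinin B, was at 74.5 against 175 CPM in the male and at 102 against 158 CPM in the female library (log2 fold change -0.92, SE 0.15; edgeR adjusted p = 7.0e-07). Ntf3, a neurotrophin, was at 75.8 against 122 CPM and at 68.9 against 112 CPM. Of the 10 tested genes on the list of neuropeptides and their receptors, Tacr3 alone passed; Npsr1, named above, was not on that list. Oprm1, the mu opioid receptor gene of the same list, was at 29.0 against 12.6 CPM and at 27.1 against 11.1 CPM, which missed the threshold (edgeR adjusted p = 0.092).

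Tmem163 binds zinc, and none of 18 tested genes of zinc transport and binding passed edgeR's or DESeq2's test in either direction, also at an unadjusted p under 0.05 in edgeR. Their median log2 fold change was 0.02. Slc30a6, a zinc exporter of the Golgi, had the largest change of that list, at 18.9 against 7.57 CPM in the male and 14.8 against 14.8 CPM in the female library. Likewise none of 15 tested calcium-binding proteins passed in either tool, with 1 at an unadjusted p under 0.05 in edgeR. Neither list could be set apart from the 1.67% that edgeR called over all genes tested. DESeq2 called only 3 genes higher and 0 lower among all genes.

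Of the 40 tested genes on the list of pacemaking, potassium and calcium channels, Kcnj3, Kcnip4, Cacna2d3 and Fgf14 rose and Kcnc2 fell. The share called over all genes tested was 1.67%. Other potassium channel genes called here, Kcnk13, Kcnab1 and Kcnh5, were not on that list. Kcnj3, an inwardly rectifying channel opened by G proteins, was at 78.3 against 45.4 CPM and at 84.9 against 51.8 CPM. Cacna2d3, an auxiliary calcium channel subunit, was at 936 against 808 CPM and at 1156 against 823 CPM. Kcnc2, a fast-gating potassium channel, was at 370 against 452 CPM and at 418 against 514 CPM. The median of the list was 0.01.

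Of 23 tested glutamate receptor genes 2 rose, among them Grid1, and Grm7 and Grik3 fell. For this list and the next, the share called over all genes tested was 1.67%. Grid1 encodes a delta receptor and was at 556 against 414 CPM and at 560 against 386 CPM (log2 fold change 0.47, SE 0.09; edgeR adjusted p = 1.1e-05). Among 11 tested GABA receptor genes only Gabrg3, a subunit of the GABA-A receptor, passed. It was at 518 against 318 CPM in the male and at 590 against 385 CPM in the female library (log2 fold change 0.65, SE 0.09; edgeR adjusted p = 1.7e-10).

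Axon guidance and cell adhesion was the longest list and the one with the most calls. Of its 61 tested genes, 10 rose and 5 fell, and the median was 0.00. Over all genes tested, 1.67% were called. Those that rose were Cntnap5b, Il1rapl2, Epha3, Cdh4, Ntng1, Il1rapl1, Cntn5, Adgrl3, Epha6 and Tenm2, and those that fell were Epha4, Cdh13, Slit2, Cdh8 and Pcdh9. Cntnap5b, a contactin-associated protein, was at 467 against 288 CPM and at 523 against 313 CPM (log2 fold change 0.71, SE 0.09; edgeR adjusted p = 2.3e-11). Epha4, an ephrin receptor of the same family as Epha3 and Epha6, was at 56.8 against 102 CPM and at 56.6 against 105 CPM (log2 fold change -0.87, SE 0.19; edgeR adjusted p = 0.00079). The 142 genes called had a median length of 326 kb, against 40.9 kb over all genes tested; intronic reads were counted, and the part of gene length in these calls was not tested.

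Markers of other cells were mostly at or near 0. In the members of this comparison, the 6 markers of GABAergic neurons summed to 0 and 2.46 CPM in the male and female libraries, with Gad2 at 0 by the rule. The 4 markers of glutamatergic neurons summed to 1.26 and 0 CPM, with Slc17a6 at 0 by the rule, and the 3 markers of serotonergic neurons to 0 and 0 CPM. Cholinergic markers summed to 1.26 and 1.23 CPM, those of oligodendrocyte precursors to 1.26 and 0 CPM, of microglia to 5.05 and 14.8 CPM and of endothelial cells to 11.4 and 9.84 CPM. Each of these lists was thus close to 0 in the members. Astrocyte markers summed to 131 and 122 CPM, of which Slc1a2 made up 125 and 117 CPM, while Aqp4 and Gja1 were at 0 in both libraries. Slc1a2 was lower in the members, against 188 and 213 CPM in the comparators. Oligodendrocyte markers differed by library. Their sum was 293 CPM in male members against 109 CPM in male comparators, with all 10 markers detected in members, and 65.2 against 83.9 CPM in the female library. Mbp, a myelin protein, was at 54.3 against 40.4 CPM in the male and at 16.0 against 23.4 CPM in the female library (log2 fold change 0.12, SE 0.28; edgeR adjusted p = 0.98). St18, a transcription factor, was at 63.1 against 21.5 CPM and at 16.0 against 18.5 CPM (log2 fold change 0.95, SE 0.31; edgeR adjusted p = 0.10). Both were thus higher in members of the male library alone, and neither passed the test over both libraries. Without the nuclei holding 2 or more UMIs of these markers, 20 genes rose and 28 fell in place of 74 and 68, and Asic2 kept its log2 fold change at 1.02.

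The differences between members and comparators moved with the clusters. Of the pairs, K10 took up 18.6% of male members and 8.37% of their comparators, and 26.6% and 11.5% in the female library, and K4 17.9% and 7.60%, and 18.7% and 7.54%. When each member was instead paired within its own cluster, an alternative added after the data were seen, no gene rose and 1 fell in edgeR's test of 8335 genes, with 383 at an unadjusted p under 0.05. Asic2 then had a log2 fold change of 0.12 (SE 0.06), Kcnip4 of 0.16 (SE 0.04) and Il1rapl2 of 0.20 (SE 0.05). The gene that fell was Tmem267, with 140 UMIs in the male comparators against 23 in the members and 7 against 5 UMIs in the female library. Of the genes called in the main comparison and tested within clusters, 121 of 141 kept their sign.

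DESeq2 called 3 genes higher (Asic2, Kcnip4 and Il1rapl2) and 0 lower, with 78 genes at an unadjusted p under 0.05, and edgeR without the block called 4 higher and 1 lower. With 4 sums and 1 residual degree of freedom, edgeR put the common dispersion at 0.00104, and the median dispersion in DESeq2 was 0.132; the cause of the difference in calls was not tested.

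**Figure D4:**
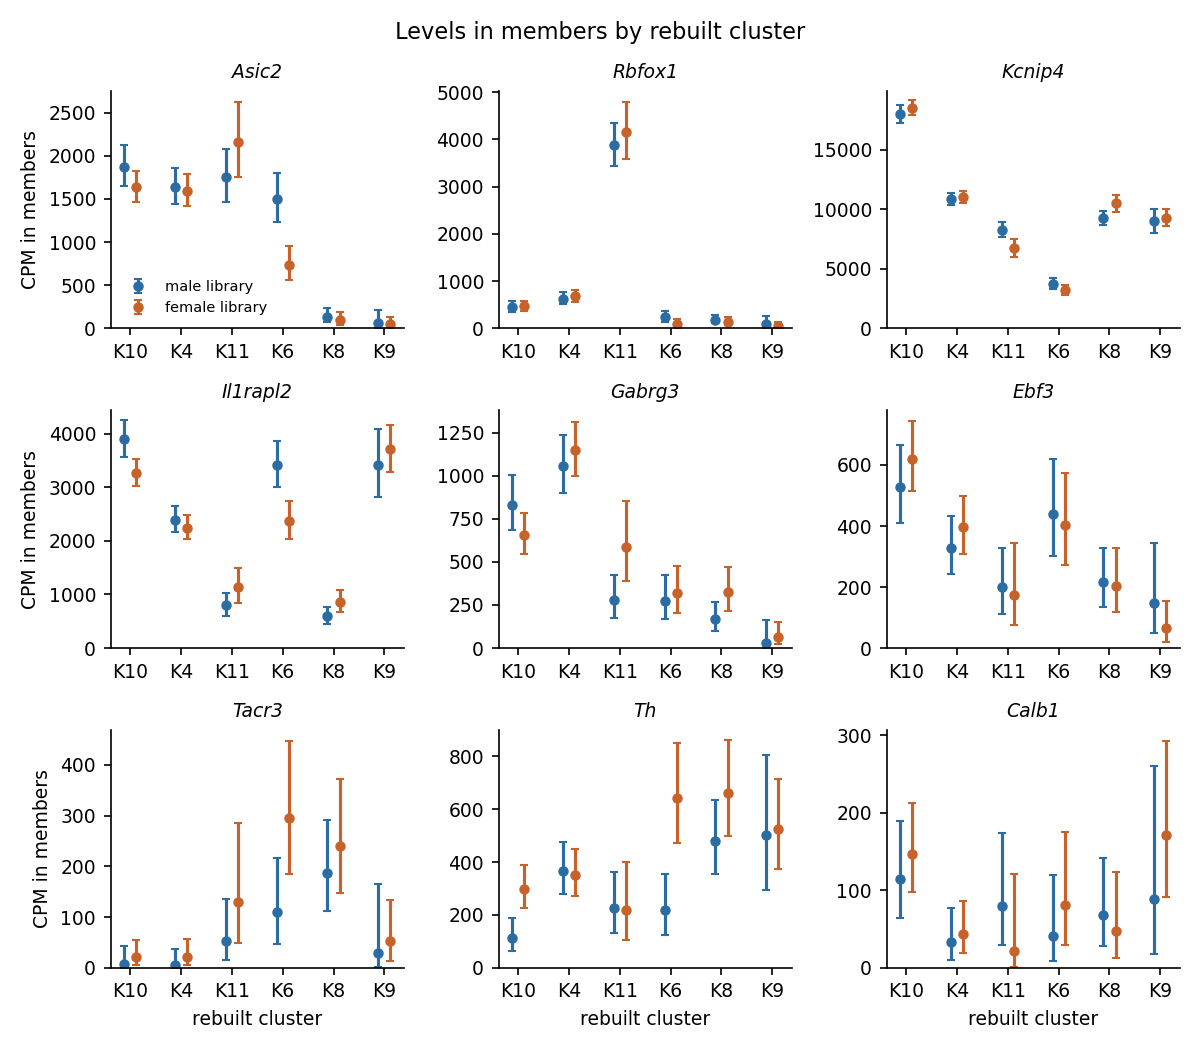
Levels of 9 genes in the members alone, in CPM (vertical axes), by rebuilt cluster (horizontal axes: K10, K4, K11, K6, K8 and K9), in the male (blue) and the female (orange) library; bars are exact Poisson 95% intervals that cover counting error only. Asic2 lay high in K10, K4 and K11 and low in K8 and K9 of both libraries, and Rbfox1 was highest in K11, at 3874 and 4160 CPM.

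The members were also unlike each other. In male and female members of K10, Asic2 was at 1871 and 1636 CPM, and in those of K11 at 1751 and 2156 CPM. In members of K8 it was at 137 and 96.2 CPM, and in those of K9 at 59.2 and 52.6 CPM. Rbfox1 was at 3874 and 4160 CPM in members of K11 and at 443 and 468 CPM in those of K10, and the 30 male members of K11 held 292 of the 684 Rbfox1 UMIs of male members. Kcnip4 was at 17990 and 18525 CPM in members of K10 and at 3758 and 3216 CPM in those of K6. Tacr3 was at 7.64 and 21.0 CPM in members of K10 and at 186 and 240 CPM in those of K8. The differences between K10, K8 and K6 held in both libraries. The clusters were built from these same nuclei, so levels by cluster are a description.

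Calb1 split the members by cluster as well. Of the K10 members, 11 of 49 in the male (22.4%) and 25 of 67 in the female library (37.3%) held a Calb1 UMI, against 5 of 47 (10.6%) and 7 of 47 (14.9%) in K4. In K9 the numbers were 3 of 12 and 10 of 24. Members with Calb1 had a median of 3074 UMIs in the male library and 3102 in the female one, against 2545 and 2812.5 in those without, and the part of depth in the share was not tested. Asic2 was at 960 and 773 CPM in members with Calb1 and at 1145 and 1107 CPM in members without it. Postn was at 0 and 66.6 CPM in members with Calb1 and at 15.8 and 35.9 CPM in those without, with no common direction.

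Levels also varied with the number of Tmem163 UMIs, again among nuclei with the 6 excluded genes at 0. These nuclei were not matched for depth, and their median was 2155 UMIs with no Tmem163 UMI, 2500 with 1 and 2932 with 2 or more in the male library, and 2265, 2908 and 3198 in the female one; the part of depth in the levels was not tested. Kcnip4 was at 6588 CPM in male nuclei with none, at 9523 CPM with 1 and at 10315 CPM with 2 or more, and at 7264, 11132 and 12412 CPM in the female library. Il1rapl2 was at 1257, 1926 and 2524 CPM and at 1394, 2142 and 2303 CPM. Both genes were thus higher at each step in both libraries. Asic2 was higher at each step in the male library, at 610, 943 and 1811 CPM, but in the female library it was at 496, 1060 and 874 CPM. Nuclei that missed the rule by 1 UMI of 1 excluded gene had Asic2 at 1429 and 1043 CPM. Their Kcnip4 was at 8908 and 9916 CPM, and both genes were thus closer to the members than to nuclei without Tmem163. Il1rapl2 was at 1558 and 2109 CPM in these nuclei. That was closer to nuclei without Tmem163 in the male library and to the members in the female one. Only 45 male and 49 female members held 2 or more Tmem163 UMIs. Among them 6 genes rose and 8 fell against matched nuclei, of 3166 tested.

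**Figure D5:**
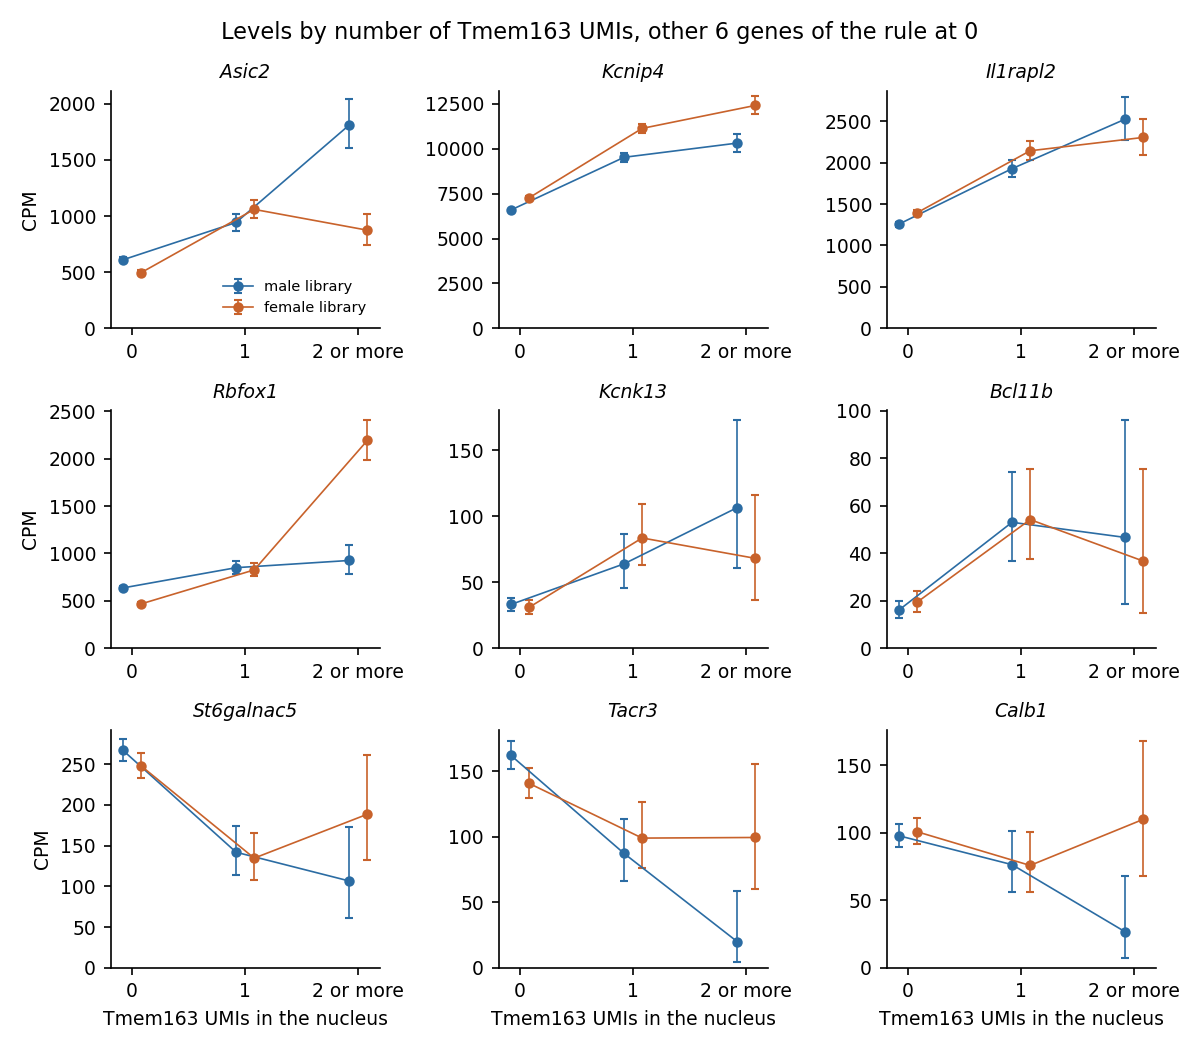
Levels of 9 genes in CPM (vertical axes) in nuclei with 0, 1 and 2 or more Tmem163 UMIs (horizontal axes) and none of the 6 excluded genes, in the male (blue) and the female (orange) library; bars are exact Poisson 95% intervals that cover counting error only. Kcnip4, Il1rapl2 and Rbfox1 were higher at each step in both libraries, Rbfox1 more steeply in the female one. Asic2, Tacr3 and Calb1 differed between libraries at 2 or more UMIs.

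The same members were next set against any depth-matched nucleus without Sox6 and Tmem163, whatever its other 5 genes, in 263 male and 253 female pairs. Here 55 genes rose and 52 fell, 1.25% of 8532 tested. This comparison and the previous one share the members. The named genes that the first had not given were Lrfn2, Nr3c1 and Kcnk9 among those that rose and Cfap61, Stac and Ebf1 among those that fell. Lrfn2, a synaptic adhesion protein, was at 69.5 against 31.6 CPM in the male and at 74.2 against 24.4 CPM in the female library. Nr3c1, the glucocorticoid receptor gene, was at 40.4 against 17.7 CPM and at 51.1 against 18.3 CPM (log2 fold change 1.34, SE 0.29; edgeR adjusted p = 0.023). Kcnk9 was at 68.2 against 22.7 CPM and at 62.1 against 32.9 CPM, and Ebf1 at 60.6 against 102 CPM and at 48.7 against 116 CPM. All 4 genes moved the same way in both libraries, which the choice of named genes required. Calb1 was at 66.9 against 96.0 CPM and at 84.0 against 102 CPM, with a log2 fold change of -0.40 (SE 0.17; edgeR adjusted p = 0.54). Paired within clusters, 2 genes rose, Kcnip4 and Epha6, and none fell (402 of 8398 at an unadjusted p under 0.05, edgeR). DESeq2 called Il1rapl2 alone, and edgeR without the block Kcnip4 and Il1rapl2.

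Lastly, the members were compared with nuclei that held both Tmem163 and Sox6 and none of the other 5 genes, the nuclei closest to them by the rule. These were 177 in the male library and 129 in the female one and were deeper, with medians of 4127 and 4182 UMIs, so that only 145 male and 117 female pairs could be formed and the comparison covers the deeper members. In the members 109 genes rose and 70 fell, 2.54% of 7057 tested. The classes also sat in different clusters. K4 held 16.6% of the paired male members and 37.2% of their comparators, and 19.7% and 38.5% in the female library, whereas K10 held 18.6% and 6.90%, and 25.6% and 9.40%. K3, whose leading genes included Vcan, held 0.690% and 8.28%, and 0% and 9.40%. Several subtype markers were lower. Of 19 tested, none rose and Ndnf, Vcan, Igf1, Satb1, Lmo3 and Cpne4 fell. Ndnf, a secreted neurotrophic factor, was at 17.9 against 49.8 CPM in the male and at 31.9 against 82.9 CPM in the female library. Igf1, insulin-like growth factor 1, was at 62.7 against 155 CPM and at 79.6 against 150 CPM (log2 fold change -1.13, SE 0.21; edgeR adjusted p = 4.2e-05). Satb1, a chromatin organizer, was at 206 against 331 CPM and at 189 against 413 CPM. Each of these 3 genes was lower in members of both libraries, which the choice of named genes required of Ndnf and Igf1. Paired within clusters, which left 92 male and 64 female pairs, 5 genes rose and 6 fell of 5012 tested in edgeR (339 at an unadjusted p under 0.05), and none of the 6 subtype markers passed. Igf1 then had a log2 fold change of -1.06 (SE 0.30; edgeR adjusted p = 0.11), Ndnf of -0.85 (SE 0.43) and Vcan of -0.33 (SE 0.58), with fewer nuclei and fewer genes to test.

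Among the lowest named genes in that comparison were also Serpine2, Plpp1, Zfp804b, Ptpn5, Pmepa1 and Vwc2. Ptpn5, a striatal-enriched tyrosine phosphatase, was at 161 against 329 CPM and at 195 against 470 CPM (log2 fold change -1.18, SE 0.14; edgeR adjusted p = 2.0e-11). Paired within clusters, Ptpn5 and Zfp804b also passed as lower, with log2 fold changes of -0.72 (SE 0.18) and -1.12 (SE 0.25). Serpine2, a protease inhibitor, was at 35.9 against 87.1 CPM and at 25.9 against 88.9 CPM.

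The highest named genes were Plekhg1, Pde7b, Hs3st4, Otx2os1, Ccdc192, Kcnab1, Glra1, Ptprk, Chrm3 and Mef2c. Kcnab1, a beta subunit of potassium channels, was at 181 against 72.9 CPM and at 127 against 33.6 CPM (log2 fold change 1.50, SE 0.22; edgeR adjusted p = 9.2e-08). Chrm3, a muscarinic acetylcholine receptor, was at 163 against 69.3 CPM and at 153 against 41.5 CPM. Ptprk, a receptor tyrosine phosphatase, was at 96.8 against 32.0 CPM and at 85.6 against 31.6 CPM. Members were higher in both libraries for all 3, which the choice of named genes required. Otx2os1 had no UMI in the female comparators. Of 23 glutamate receptor genes 5 rose, among them Grm3, Grin3a, Grik2 and Grin2a, and none fell, with a list median of 0.13. Of 38 genes on the channel list, which does not hold Kcnab1, 6 rose and 2 fell, the latter being Kcnj6 and Kcnq3. Of 60 on the adhesion list 7 rose and 9 fell. The share called over all genes tested was 2.54% in this comparison.

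Asic2 and Rbfox1 did not pass the test here. Asic2 was at 1063 against 1042 CPM in the male and at 1043 against 873 CPM in the female library, and Rbfox1 at 697 against 1088 CPM and at 1167 against 484 CPM. Kcnip4 and Il1rapl2 rose by 0.34 on the log2 scale each. Calb1 was at 52.0 against 44.4 CPM and at 65.7 against 43.4 CPM (log2 fold change 0.39, SE 0.29; edgeR adjusted p = 0.78), which did not pass the test. DESeq2 called Epha6 higher and Pex5l lower, edgeR without the block called Pex5l alone, and the remaining calls of this comparison did not pass in either.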

How the data were processed

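Sorted nuclei of 2 male and 3 female mice were profiled in 1 library per sex with a 3′ chemistry (10x Genomics). Per the labels, Cell Ranger 6.0.0 and Seurat 4.0.2 and the build mm10 were used. The deposited values are raw UMI counts of each gene in each nucleus, introns included, to which the authors applied no normalization. Nuclei with under 500 features were left out (38 male and 48 female), which left 21609454 and 19843000 UMIs. CPM was computed from counts summed per library and class of nuclei.

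Members and gene lists were chosen with earlier results of these data known. Members were paired 1 to 1 with comparators. Sums were tested with edgeR 4.0.16 (TMM, filterByExpr, quasi-likelihood, library as a block) with Benjamini-Hochberg adjustment; the 7 genes of the rule were left out of the calls. DESeq2 1.42.0 was an alternative. P-values rest on 2 pools with 1 residual degree of freedom and on edgeR's common dispersion, 0.00104 in the main comparison. They do not measure the spread between mice. DESeq2, with a median dispersion of 0.132, called 3 genes higher and 0 lower there. Intervals cover counting error. Named genes were the 10 highest and 10 lowest past adjusted p 0.05, with 1 sign in both libraries and at least 50 UMIs, up to 4 per list, and 5 genes fixed by name (Gsta4, also fixed, was not tested); a few are not reported here. Clusters came from scanpy 1.11.5 (2000 variable genes, 30 components, 20 neighbours, resolution 1.0). Positions are from GENCODE vM21. On simulated counts for the main comparison (8522 genes), 67% of 2-fold and 94% of 4-fold changes were called, and 4.17% of calls were false. Those counts were drawn at edgeR's common dispersion of 0.00104, with no spread added between pools or clusters. The shares therefore do not carry over to data as spread as the median dispersion of DESeq2, 0.132.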

Additional observations from a re-analysis of the deposited data

Results flagged for a closer look

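Slc6a3, the dopamine transporter, moved in opposite directions in the libraries: the log2 ratio of members to comparators without Tmem163 was 0.12 for males and -0.046 for females. It did not pass the test over both libraries, and the difference between them was not tested.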

How the results depend on the processing

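Against nuclei that differ by Tmem163 alone (74 rose, 68 fell), the counts were 3 and 0 with DESeq2, 4 and 1 with no replicate block, 40 and 40 at 1000 features, 13 and 7 after thinning to 1000 UMIs, 6 and 8 with members of 2 or more Tmem163 UMIs, 20 and 28 without nuclei holding oligodendrocyte markers, and 0 and 1 in pairs formed within a cluster. Against all nuclei without Sox6 and Tmem163 (55 and 52), they were 185 and 139 without a depth match, 136 and 101 matched on features, 95 and 91 without a filter on low counts, 152 and 133 with 4 comparators per member, 36 and 32 at 1000 features, 5 and 3 after thinning, 4 and 3 with 2 or more Tmem163 UMIs, 1 and 0 with DESeq2, 2 and 0 with no replicate block (107 and 348 genes at an unadjusted p under 0.05), and 2 and 0 within clusters; with a second seed 84 rose. Against nuclei with Tmem163 and Sox6 (109 and 70), they were 51 and 44 at 1000 features, 16 and 15 with 2 or more Tmem163 UMIs, 1 and 1 with DESeq2, 0 and 1 with no replicate block (392 genes at an unadjusted p under 0.05), 5 and 6 within clusters, and 0 and 0 after thinning (26 of 407 genes at an unadjusted p under 0.05, edgeR), and 47 rose without a match. Thinning and the higher Tmem163 threshold left fewer UMIs or nuclei and fewer genes to test; elsewhere the cause was not tested. Pairs within clusters and 4 comparators were added after the data were seen. The share of members fell to 2.39% (male) and 2.71% (female) after thinning and to 0.686% and 0.889% with 2 or more Tmem163 UMIs.

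Of the genes called against nuclei without Tmem163, 142 of 142 kept their sign under DESeq2, with no block, with library size scaling and with the second seed, against 121 of 141 tested within clusters, 121 of 122 with 2 or more Tmem163 UMIs and 114 of 115 after thinning. DESeq2, the fit with no block and library size scaling used the same sums, and the second seed the same members. Signs of called genes could hardly turn there. Signs also turned for genes that had not passed: Slc6a3 to -0.0374 matched on features, -0.0369 with 2 or more Tmem163 UMIs and -0.054 within clusters, Ddc to -0.0091 matched on features and -0.0072 with 4 comparators, Slc18a2 to 0.41, 0.0077 and 0.0043 with 2 or more Tmem163 UMIs, at 1000 features and without oligodendrocyte markers, and Th to 0.0556 within clusters. With 1 library left there is no residual degree of freedom, so no count could be given. The 2 pools and the depth per nucleus limit what can be seen of genes at a few CPM.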

Other observations

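Male members held 3.71% of their UMIs in Malat1 and female members 2.16%, against 3.81% and 2.19% in nuclei that met the rule except for having no Tmem163 and 4.46% and 2.77% over all kept nuclei of the same library. Mitochondrial transcripts were 0.039% and 0.013% of the UMIs of members. In the male library 7.22% of members held 2 or more UMIs of oligodendrocyte markers, and in the female library 3.54%.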
